A study of Drosophila melanogaster with 12 samples.

Results

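The mRNAs of ribosome biogenesis and nucleolar factors were followed in Drosophila melanogaster ovaries through input RNA and polysomes of 3 genotypes. A list of 31 symbols of nucleolar and pre-ribosome assembly factors was looked up in the Release 6 annotation. Of these, 30 were found among the 17023 genes of the count tables, and Bop1 was not found under that symbol. All 30 passed the filter on low counts, which kept 10035 genes, and none was at 0 in any of the 12 libraries. The members lie on arms 2L (8 genes), 2R (7), 3L (5), 3R (7) and on X (3).

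The Nop60B RNAi ovaries expressed a hairpin against Nop60B, the catalytic subunit of the H/ACA small nucleolar ribonucleoprotein (snoRNP) that pseudouridylates rRNA, under the germline driver nanos-GAL4, so that somatic cells of these ovaries were not targeted. The cyst control carried bam RNAi under the same driver together with a heat-shock bam transgene, and its flies were heat-shocked repeatedly to push undifferentiated germ cells into cysts. The germarial control was UAS-Dcr2;nosGAL4 without a hairpin, from freshly eclosed females (young wild type, YWT), whose ovaries hold germaria and early egg chambers; the Nop60B RNAi females were also freshly eclosed, the cyst control females older. Each genotype had 2 input and 2 polysome libraries, each from many pooled ovaries, and the input was taken from the same lysate as the polysomes. The labels give the libraries of a group as separate samples without saying that they came from separate crosses, so p-values measure spread between libraries only. That spread was estimated in 1 fit of all 12 libraries. The cyst control, whose replicates agreed least, therefore also entered the p-values of comparisons without it.

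Ribosome production starts in the nucleolus, where RNA polymerase I transcribes the rRNA precursor and the small subunit processome, guided by snoRNPs, cleaves and folds it. RNA helicases remodel the precursor, GTPases and other assembly factors complete the large and small subunits, and export adaptors and kinases release them into the cytoplasm. In the Drosophila ovary this program is known for its high activity in germline stem cells, and the helicases ais, ath and pths are known to be needed there for differentiation. Many of its genes are targets of Myc, which binds the E-box CACGTG together with its partner Max.

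The promoter windows of the members shared a sequence feature. The window ran from 250 bases before to 50 bases after the annotated gene start (300 bases, RefSeq assembly of Release 6), and both strands were searched; the E-box is the same on either. An E-box was found in 20 of the 30 members (66.7%), against 571 of 13630 promoters of protein-coding genes in the tables (4.19%). In all 20 members it began after the start, at 2 to 41 bases downstream with a median of 31, whereas over all promoters only 182 (1.34%) held an E-box downstream of the start and the median position was 71.5 bases upstream. Among 33 other genes of ribosome production (snoRNP core proteins, RNA polymerase I, pre-rRNA helicases, rRNA nucleases, eIF6 and Myc), 16 (48.5%) had an E-box in the window and 14 (42.4%) had it downstream of the start. Members without these letters in the window were ath, Non1, Ns2, Ns4, vito, pit, mod, Tsr1, Tif-IA and Nop17l. The DNA replication-related element TATCGATA was less frequent, in 5 of 30 members (pths, Non3, wcd, Nmd3 and Nop17l, 16.7%) and in 1257 of the 13630 promoters (9.22%).

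The E-boxes of 8 members are shown because these genes either carry the results below or, as RIOK2, moved little. Each line gives 30 bases of the sense strand, 5′ to 3′, with the E-box in capitals.
ais: tcaaaacaattgCACGTGcgttgttttcag
Surf6: cttgcttagctgCACGTGtgcgtgcgtaaa
Bka: aaatacttaccaCACGTGtgccacttttta
peng: ctgcatcagcagCACGTGtagttcgctttt
pths: ttttatttcgacCACGTGctgctattggta
Ns1: gaagactattttCACGTGttcttgttttaa
Nmd3: tacacctatacgCACGTGtttacaaatttg
RIOK2: ctatcgtgcctgCACGTGtgaaacgaaaac
These sites lie at chr3L:17804669-17804698 (ais, minus strand), chr3R:19904820-19904849 (Surf6, minus), chr2L:9895309-9895338 (Bka, plus), chrX:21349807-21349836 (peng, minus), chr2L:21143235-21143264 (pths, plus), chr3R:17072636-17072665 (Ns1, minus), chrX:2184618-2184647 (Nmd3, minus) and chr3R:25265837-25265866 (RIOK2, plus) of dm6. The E-box began 29 bases downstream of the start in ais, 31 in Surf6, 34 in Bka, 19 in peng, 18 in pths, 22 in Ns1, 33 in Nmd3 and 5 in RIOK2.

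**Figure D1:**
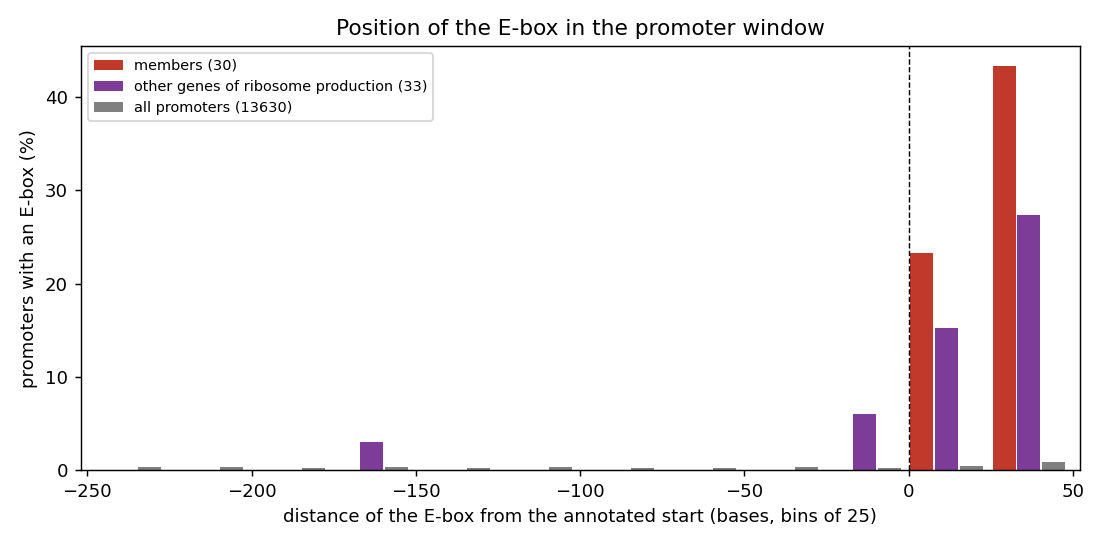
Share of promoters (percent) with an E-box, by its distance in bases from the annotated gene start in bins of 25, for the 30 members, 33 other genes of ribosome production and 13630 promoters of protein-coding genes. The members' E-boxes all fall in the last 2 bins, with 23.3% and 43.3% of members against 0.462% and 0.873% of all promoters.

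Coding sequences were searched for runs of at least 5 glutamine codons, since translation of such proteins is the subject of the study. Such a run was found in 1 of the 30 members, Nop17l (3.33%), and in 1016 of 13630 genes (7.45%). These are exact runs in the longest coding sequence of each gene. The study used another measure, a search for motifs resembling a run of glutamines, and by it reports such a motif in Aramis, the product of ais. The longest exact run of ais was 2 here, so the counts above do not place members inside or outside the study's set.

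The libraries held 2780781 to 21626125 counts, with a median of 13615213. The shallowest was replicate 1 of the cyst control polysomes, where 3 counts correspond to 1.36 CPM (counts scaled to library size), against 0.13 to 0.404 CPM in the other 11 libraries; such floors cover counting error only. Cyst control replicates stood apart from each other. Across the 10035 genes the correlation of log2 CPM between replicates was 0.79 in cyst polysomes and 0.883 in cyst input, and 0.897 to 0.981 in the other 4 groups. Among the members, 15 of 30 differed at least 2-fold between the cyst input replicates and 14 between the cyst polysome replicates, against 0 or 1 in each other group. Over all genes 43.5% and 66.8% did so in the cyst groups and 9.62% to 25.3% in the others, so the spread was not particular to the members. Replicate 1 was the lower among the members (median log2 difference -1 in input and -0.74 in polysomes). Titles of both replicate 1 cyst libraries follow another format than those of the other 10.

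Most germline markers differed between the genotypes. In input, 6 of 8 germline markers (aub, AGO3, osk, orb, otu and bam) fell in Nop60B RNAi against both controls, with median log2 differences over the 8 of -3.42 against the germarial and -3.18 against the cyst control, and the list summed to 296-369.7 CPM in Nop60B RNAi, 1172-2625 CPM in the cyst control and 2331-2803 CPM in the germarial control. Against the germarial control tud and bgcn were not called lower in either fraction, and tud had 0.79 in input and was called higher in polysomes (1.06). The markers vas and nos were not found under those symbols and are not in this list. In polysomes the list summed to 263-307 CPM in Nop60B RNAi, 891-1678 CPM in the cyst control and 1499-1719 CPM in the germarial control, with 6 of 8 lower than in the germarial and 5 of 8 lower than in the cyst control. Of the egg chamber germline genes, 4 of 5 fell in input against both controls (median -6.31 and -6.27), and grk did not (1.26 in input and 1.84 in polysomes against the cyst control). Their input sums were 55.6-63.1 CPM in Nop60B RNAi and 2767-3258 CPM in the germarial control. The cyst control replicates stood far apart, at 155-1800.2 CPM in input and 141-1879 CPM in polysomes. Hemocyte markers (7 genes) summed to 1364-1461 CPM in Nop60B RNAi, 304-845 CPM in the cyst control and 73.2-79.7 CPM in the germarial control, with 6 of 7 higher in Nop60B RNAi than in the germarial control, and muscle markers (5 genes) to 28618-30908 CPM in Nop60B RNAi, 4118-17989.9 CPM in the cyst control and 4634-5489 CPM in the germarial control, with 5 of 5 higher in Nop60B RNAi than in the germarial control. Somatic gonad markers (10 genes) summed to 1212-1291 CPM in Nop60B RNAi, 438-1507 CPM in the cyst control and 655-680 CPM in the germarial control. Fat body markers (5 genes) summed to at most 7.36 CPM in every input library, but in polysomes to 4.4-36.1 CPM in Nop60B RNAi, 1.36-3.14 CPM in the cyst control and 0.116-1.9 CPM in the germarial control, where Lsp2 was called higher in Nop60B RNAi than in the germarial control (5.66). Hemocyte markers in polysomes summed to 2230.1-3083 CPM in Nop60B RNAi, 332-489 CPM in the cyst control and 80.1-88.2 CPM in the germarial control, and muscle markers to 26735-32052 CPM in Nop60B RNAi, 3643-26836 CPM in the cyst control and 4805-4874 CPM in the germarial control. Heat shock genes (6, of which Hsp22 was at 0 in all 12 libraries) summed to 2385-2443 CPM in Nop60B RNAi, 21201-29696 CPM in the cyst control and 5009-5384 CPM in the germarial control. The part of these shifts in the results below was not tested, and in bulk ovaries fewer cells of a type and less RNA per cell cannot be told apart. Nop60B mRNA itself had 446 and 462 CPM in Nop60B RNAi input, 336 and 748 CPM in cyst control input, and 1553 and 1776 CPM in germarial control input (log2 -0.26, adjusted p = 0.746 against the cyst control, and -1.88, adjusted p = 0.0242 against the germarial control, edgeR).

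Levels between members are compared per kb of exon. In germarial control input, mod, a nucleolin-like protein of the nucleolus, stood highest at 1101 CPM per kb, followed by the GTPase Non1 (437), pths (312) and the nucleostemin Ns1 (248). The lowest were Ns4 (19.8), RIOK2 (16) and Nop17l (8.55). In Nop60B RNAi input the order at the top was the same, with mod at 420, Non1 at 286, pths at 148 and Ns1 at 125 CPM per kb. In the cyst control input Non1 (496) stood above mod (343). Summed over the 30 members, CPM came to 4102 and 4261 in Nop60B RNAi input, 3249 and 5659.8 in cyst control input and 8719 and 9216 in germarial control input. The polysome sums were 4559 and 4792 in Nop60B RNAi, 3047 and 4542 in the cyst control, and 10029 and 10274 in the germarial control. Nop60B RNAi and the cyst control were thus below the germarial control in every library, and the Nop60B RNAi sums lay within the range of the cyst control in input and just above it in polysomes.

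**Figure D2:**
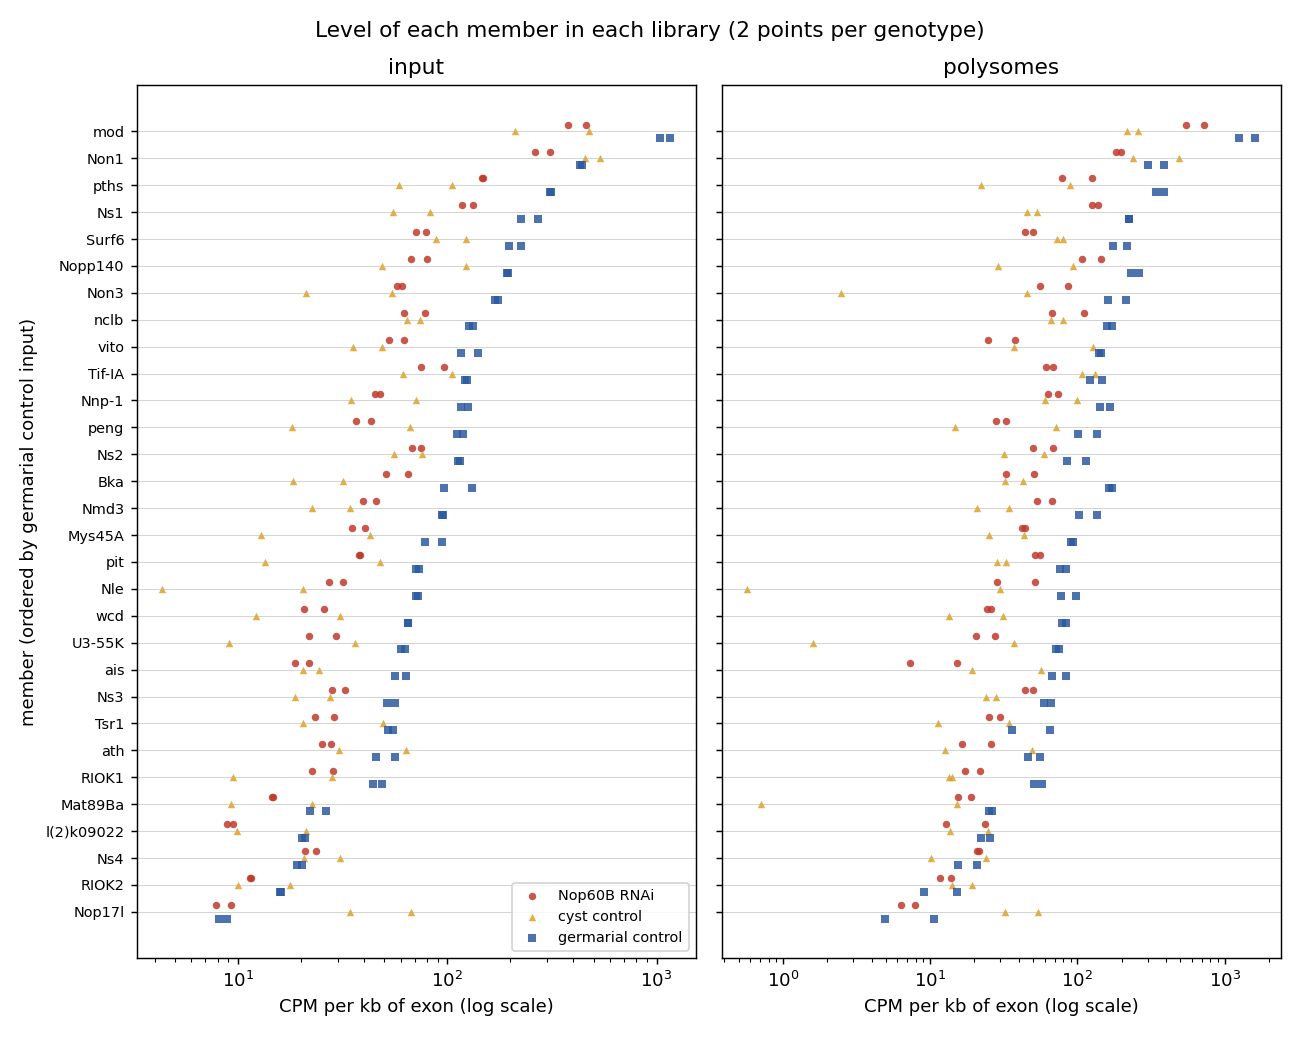
CPM per kb of exon (log scale) of each of the 30 members in each library of Nop60B RNAi, the cyst control and the germarial control, in input (left) and polysomes (right), 2 points per genotype. The germarial control points lie to the right of the others for most members, Nop17l is highest in the cyst control, and in cyst polysomes Nle, U3-55K, Non3 and Mat89Ba each have 1 point far to the left of the other.

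Whether the mRNAs differed between Nop60B RNAi and the germarial control was tested across all 10035 genes with edgeR's quasi-likelihood test, and a gene was called at 2-fold or more and an unadjusted P under 0.05. The study's methods give that rule for polysome sequencing and a false discovery rate for RNA-seq, so for input the counts by adjusted p are the closer to its methods; adjusted p-values are Benjamini-Hochberg over all 10035 genes. In input, 11 of 30 members fell and 0 rose. The fallen members were ais, Nopp140, Nnp-1, Surf6, vito, mod, wcd, l(2)k09022, Nmd3, peng and Mys45A. Over all genes 6.35% were called lower and 11.5% higher. The median log2 difference of the members was -1.06, against 0.02 over all genes, and 28 of 30 were below 0, against 48.8% of all genes. In 28 of 30 the Nop60B RNAi libraries lay wholly below the germarial ones, a count for which no share over all genes was taken. By adjusted p under 0.05, 1 member (Surf6) was lower, with 1.23% of all genes lower by that rule. The adjusted p depended on the fit. Over 5 alternative fits its smallest value for the 11 fallen members was 5.84e-07 (peng) to 2.91e-05 (mod). The largest was 0.0279 (Surf6) to 0.27 (vito, edgeR or DESeq2).

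In polysomes, 13 of 30 fell and 0 rose, against 11.7% and 14.1% of all genes. Those were ais, ath, pths, Nnp-1, Surf6, vito, mod, wcd, peng, RIOK1, Bka, Mys45A and Tif-IA. The members' median was -1.08 and that of all genes -0.08. Values were below 0 in 28 of 30 members and in 52.1% of all genes. Groups did not overlap, with Nop60B RNAi lower, in 26 of 30, again without a share over all genes. By adjusted p, 4 members were lower (ais, vito, Surf6 and Bka), with 3.26% of all genes. Over the 5 alternative fits the smallest adjusted p of the 13 was 7.66e-11 (Surf6) to 0.0207 (ath). The largest was 0.0074 (Surf6) to 0.195 (ath, edgeR or DESeq2). Fewer members were called lower in input without either Nop60B RNAi input replicate, and in polysomes without Nop60B RNAi polysomes replicate 1. Shares of all genes in those fits are not set beside them.

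Among the helicases, ais encodes a DEAD-box protein that acts on the small subunit precursor, known as Rok1 in yeast. Its mRNA had 39.7 and 46 CPM in Nop60B RNAi input, 43.2 and 51.6 CPM in cyst control input, and 119.6 and 134 CPM in germarial control input. Polysomes held it at 32.1 and 15.4 CPM in Nop60B RNAi, 120.3 and 40.9 CPM in the cyst control, and 176 and 141 CPM in the germarial control. Nop60B RNAi lay below the germarial control in both fractions with no overlap, and the cyst control replicates were close in input but apart in polysomes. The log2 difference from the germarial control was -1.56 ± 0.52 (SE, n = 2 each) in input (adjusted p = 0.122, edgeR) and -2.74 ± 0.54 in polysomes (adjusted p = 0.0155, edgeR). The input call was lost without Nop60B RNAi input replicate 1 (-1.46, unadjusted P = 0.0649, edgeR).

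The helicase gene pths, the counterpart of DDX47, had 248 and 244 CPM in Nop60B RNAi input, 98.2 and 176 CPM in the cyst control and 523 and 518 CPM in the germarial control. Its polysome values were 132 and 211 CPM in Nop60B RNAi, 37.1 and 148 CPM in the cyst control, and 569.8 and 650.5 CPM in the germarial control. The germarial control was highest in both fractions and the cyst control lowest in input. Against the germarial control it fell by 1.83 ± 0.55 on the log2 scale in polysomes (unadjusted P = 0.0066, adjusted p = 0.0634, edgeR), a call lost without Nop60B RNAi polysomes replicate 1 (-1.57, unadjusted P = 0.0568, edgeR), and its input value was -1.08 ± 0.54 (adjusted p = 0.294, edgeR).

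The third of these helicases, ath, the counterpart of DHX33, had 58.8 and 64.6 CPM in Nop60B RNAi input, 71.2 and 148 CPM in the cyst control, and 132 and 107 CPM in the germarial control. On polysomes ath had 60.4 and 38.2 CPM in Nop60B RNAi, 29.4 and 115 CPM in the cyst control, and 108 and 129 CPM in the germarial control. The Nop60B RNAi libraries were below the germarial ones, while the cyst control spanned most of the range. The polysome difference from the germarial control was -1.27 ± 0.57 (unadjusted P = 0.049, adjusted p = 0.176, edgeR). Leaving out any 1 of the 8 Nop60B RNAi or germarial control libraries lost the call, with values of -1.68 to -0.98. RLE size factors lost it too, as did the replicate block, which here gave replicate 2 of all groups a common term and did not pair lysates. The input value was -0.95 (adjusted p = 0.398, edgeR). Pit, a DEAD-box protein of the nucleolus, did not pass in either fraction (-0.92 in input and -0.58 in polysomes).

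Of the nucleolar proteins, Surf6 had the smallest adjusted p in both fractions. It had 81.5 and 91 CPM in Nop60B RNAi input, 102 and 141 CPM in the cyst control and 228 and 258 CPM in the germarial control. On polysomes Surf6 had 57.6 and 51 CPM in Nop60B RNAi, 91.3 and 84 CPM in the cyst control and 201 and 250.1 CPM in the germarial control. The Nop60B RNAi libraries were lowest in each fraction, without overlap with either control. The log2 difference from the germarial control was -1.49 ± 0.3 in input (adjusted p = 0.0242, edgeR) and -2.05 ± 0.31 in polysomes (adjusted p = 0.00576, edgeR), and both calls held without each of the 12 libraries in turn.

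The gene vito, whose product is needed for rRNA processing and nucleolar structure, had 58.9 and 50.1 CPM in Nop60B RNAi input, 46.6 and 33.6 CPM in the cyst control, and 111 and 134 CPM in the germarial control. Its polysome values were 23.6 and 36 CPM in Nop60B RNAi, 122 and 35.3 CPM in the cyst control, and 137 and 134 CPM in the germarial control. Of the cyst polysome replicates, 1 was near the germarial control and the other within the Nop60B RNAi range. Against the germarial control vito fell by 2.18 ± 0.54 on the log2 scale in polysomes (adjusted p = 0.0328, edgeR). The input value was -1.17 ± 0.52 (unadjusted P = 0.046, adjusted p = 0.238, edgeR), and leaving out any of 7 libraries took this call away (unadjusted P 0.051 to 0.162, edgeR), as did DESeq2 and RLE size factors.

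The mRNA of Bka had 49 and 38.8 CPM in Nop60B RNAi input, 13.9 and 24.1 CPM in the cyst control and 73.4 and 99.2 CPM in the germarial control. Its polysome levels were 24.9 and 38.3 CPM in Nop60B RNAi, 24.4 and 32.2 CPM in the cyst control, and 130.2 and 124 CPM in the germarial control. The 3 genotypes were ordered without overlap in input, while in polysomes Nop60B RNAi and the cyst control overlapped. The polysome difference from the germarial control was -2.01 ± 0.46 (adjusted p = 0.027, edgeR) and the input value -0.97 ± 0.45 (adjusted p = 0.253, edgeR).

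The most abundant member, mod, had 866 and 1056 CPM in Nop60B RNAi input, 484 and 1083 CPM in the cyst control and 2371 and 2665 CPM in the germarial control. The polysome levels of mod were 1257 and 1657 CPM in Nop60B RNAi, 494 and 591 CPM in the cyst control, and 3684 and 2855 CPM in the germarial control. Nop60B RNAi lay between the controls in polysomes and within the cyst range in input. The log2 difference from the germarial control was -1.39 ± 0.41 in input (adjusted p = 0.0844, edgeR) and -1.17 ± 0.41 in polysomes (adjusted p = 0.0972, edgeR), and the polysome call was lost without Nop60B RNAi polysomes replicate 1 (-1.02, unadjusted P = 0.0849) or germarial control polysomes replicate 1 (-0.98, unadjusted P = 0.0828, edgeR).

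The processome protein wcd (UTP18 in yeast) had 34.6 and 43 CPM in Nop60B RNAi input, 20.3 and 50.9 CPM in the cyst control, and 108 and 108 CPM in the germarial control. The polysome levels of wcd were 40.4 and 42.9 CPM in Nop60B RNAi, 22.2 and 51.7 CPM in the cyst control, and 131 and 139 CPM in the germarial control. Nop60B RNAi was below the germarial control and inside the cyst range in each fraction. It fell by 1.48 ± 0.52 in input and by 1.69 ± 0.52 in polysomes on the log2 scale (adjusted p = 0.136 and 0.0675, edgeR), and the input call was lost without Nop60B RNAi input replicate 1 (-1.33, unadjusted P = 0.0903, edgeR). The other processome and RNA polymerase I factors gave mixed calls. Of them l(2)k09022 (HEATR1) fell in input only (-1.17) and had -0.39 in polysomes, Tif-IA, the RNA polymerase I initiation factor, fell in polysomes only (-1.06) and had -0.52 in input, and U3-55K, Mat89Ba and nclb passed in neither (-0.57 to -1.59). The difference between fractions was tested as the ratio below. Nnp-1, a nucleolar protein, and Mys45A, the counterpart of SDAD1, were called lower in both fractions (-1.38 and -1.18, and -1.2 and -1.1). Nopp140, a scaffold of the nucleolus and Cajal body, fell in input (-1.41) and had -0.98 in polysomes. Several of these calls were lost when 1 library was left out, which leaves 1 library in a group. In input the log2 differences over these 12 fits stayed at -1.54 to -1.28 for Nopp140, -1.28 to -1.13 for l(2)k09022 and -1.4 to -1.09 for Mys45A. In polysomes that of Tif-IA ranged from -1.19 to -0.92. In input, Nopp140, l(2)k09022 and Mys45A were not called without Nop60B RNAi input replicate 1 or without its replicate 2, nor l(2)k09022 without germarial control input replicate 1 or Mys45A without germarial control input replicate 2 (unadjusted P 0.0555 to 0.124 over these fits, edgeR). In polysomes, Nnp-1 was lost without Nop60B RNAi polysomes replicate 2 or germarial control polysomes replicate 1, Tif-IA without replicate 2 of either polysome group, and Mys45A without any 1 of the 8 Nop60B RNAi and germarial control libraries (unadjusted P 0.0501 to 0.119, edgeR). DESeq2 and RLE size factors also ended the polysome calls of Mys45A and Tif-IA.

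For factors of the large subunit, peng, a pumilio-repeat protein, had 102 and 86.5 CPM in Nop60B RNAi input, 43.1 and 158 CPM in the cyst control and 263 and 283 CPM in the germarial control. Its polysome levels were 66 and 77.9 CPM in Nop60B RNAi, 34.8 and 170.1 CPM in the cyst control, and 238 and 322 CPM in the germarial control. As for wcd, Nop60B RNAi was below the germarial control and within the cyst range. The log2 differences from the germarial control were -1.54 ± 0.68 in input (unadjusted P = 0.0444, adjusted p = 0.234, edgeR) and -1.96 ± 0.69 in polysomes (adjusted p = 0.0992, edgeR). Leaving out 1 of 8 libraries lost the input call (unadjusted P 0.0518 to 0.141, edgeR) and 1 of 3 the polysome call (0.054 to 0.0767). A neighbouring gene on the other strand covers 10.4% of the exonic length of peng, and whether counting used strand is not given in the sources used here.

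Nmd3, the export adaptor of the large subunit, had 81.6 and 70.9 CPM in Nop60B RNAi input, 40.3 and 61.5 CPM in the cyst control and 171 and 169.9 CPM in the germarial control. On polysomes Nmd3 had 121 and 94.7 CPM in Nop60B RNAi, 37.1 and 61.7 CPM in the cyst control, and 185 and 242 CPM in the germarial control. Nop60B RNAi lay between the controls in each fraction without overlap. The difference from the germarial control was -1.16 ± 0.36 in input (adjusted p = 0.101, edgeR), lost without Nop60B RNAi input replicate 2 (-1.06, unadjusted P = 0.0644, edgeR), and -0.98 ± 0.36 in polysomes (adjusted p = 0.11, edgeR), just short of 2-fold. Non3, of the Brix family, and Nle, which acts late in large subunit assembly, had large differences with large errors (-1.54 ± 0.84 and -1.28 ± 1.05 in input) and were not called. In replicate 1 of cyst control polysomes Nle had 0.904 CPM, below the floor of 3 counts for that library (1.36 CPM).

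Of the nucleostemin-family GTPases, none was called against the germarial control. Ns1 had 222 and 252 CPM in Nop60B RNAi input, 104 and 157 CPM in the cyst control and 427 and 514 CPM in the germarial control. Its polysome values were 260.3 and 238 CPM in Nop60B RNAi, 101 and 86.3 CPM in the cyst control, and 424 and 422 CPM in the germarial control. The 3 genotypes did not overlap in either fraction, with Nop60B RNAi in between, and the difference from the germarial control fell just short of 2-fold in input (-0.99 ± 0.3, adjusted p = 0.0929, edgeR) and was -0.76 ± 0.3 in polysomes (adjusted p = 0.128, edgeR). Ns2, Ns3 and Non1 had -0.42 to -0.86 over the 2 fractions. Ns4 stood apart, with 46.5 and 40.9 CPM in Nop60B RNAi input and 37.6 and 39.9 CPM in germarial control input (0.17 ± 0.52, adjusted p = 0.915, edgeR).

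Of the factors of the small subunit in late maturation, the kinase RIOK1 fell in polysomes (-1.47 ± 0.5, adjusted p = 0.0905, edgeR, lost without replicate 1 of the Nop60B RNAi or the germarial control polysomes) and had -0.87 in input, and Tsr1, a GTPase-like protein, had -1.03 and -0.88 and was not called. RIOK2 was among the members that moved least, with 20.3 and 20 CPM in Nop60B RNAi input and 27.8 and 28.2 CPM in germarial control input (-0.47), and 0.08 in polysomes. An antisense RNA gene, asRNA:CR45214, covers 48.5% of the exonic length of RIOK2 and Tbc1d8-9 on the other strand 19.4% of Tsr1, so that their counts are uncertain without the strand setting. Nop17l, related to the snoRNP assembly factor PIH1D1, had 0 in input and -0.13 in polysomes.

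**Figure D3:**
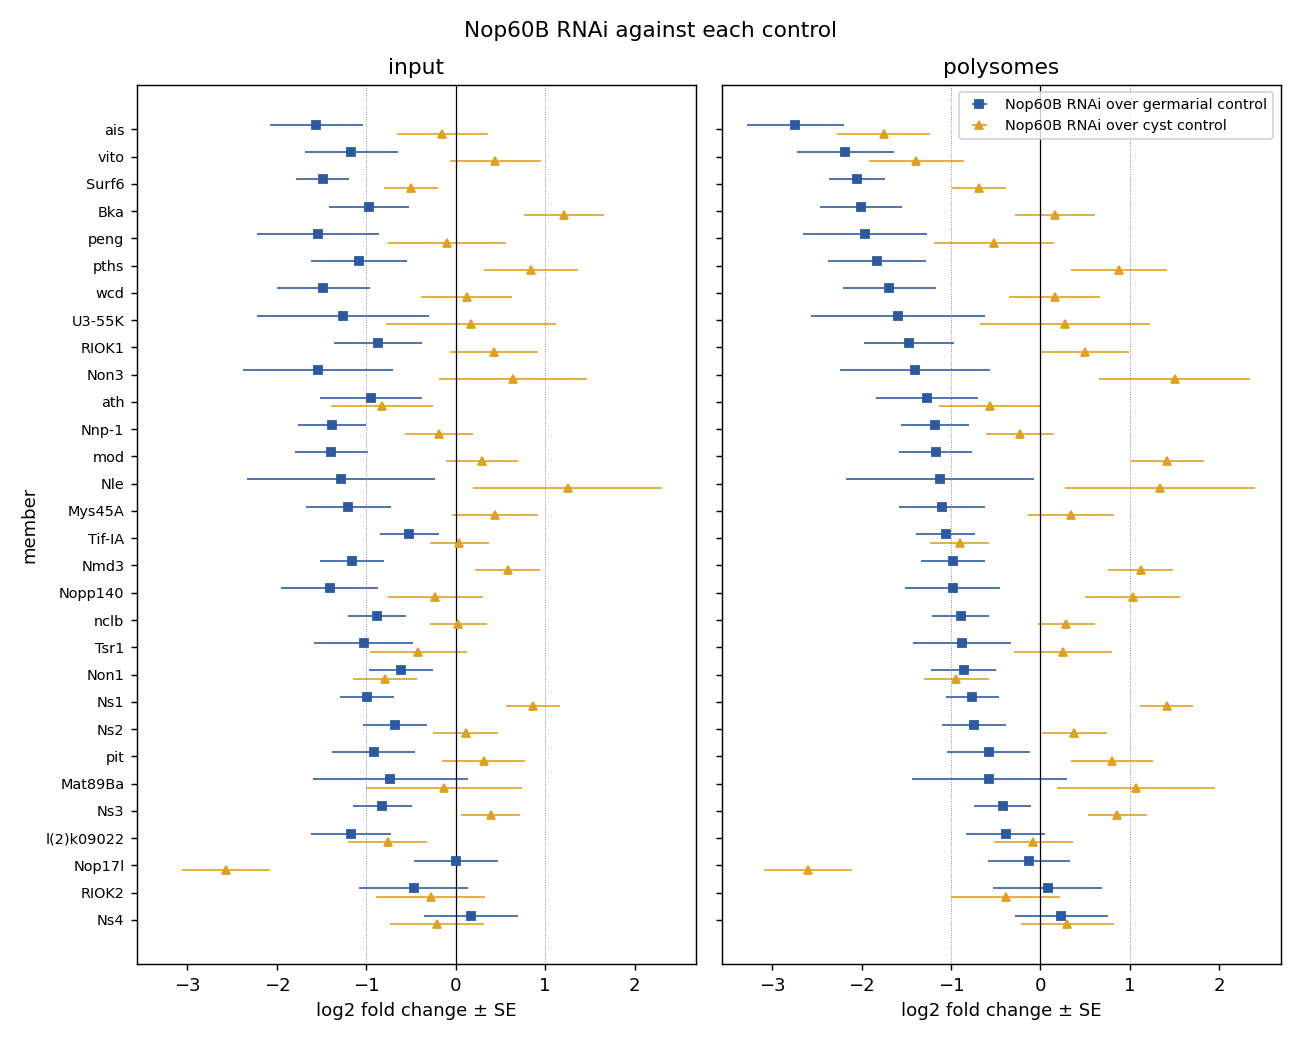
Log2 fold change ± SE (edgeR, n = 2 each) of each member in Nop60B RNAi over the germarial control (squares) and over the cyst control (triangles), in input (left) and polysomes (right); dotted lines mark 2-fold. Squares lie below 0 for 28 of 30 members in each fraction (48.8% of all genes in input and 52.1% in polysomes), triangles scatter around 0, and Nop17l lies at -2.57 and -2.6 against the cyst control.

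Members with an E-box and those without gave overlapping ranges. Against the germarial control the 20 with an E-box had a median of -1.19 in input (9 called lower) and -1.15 in polysomes (9 called lower), and the 10 without had -0.8 (2 called) and -0.87 (4 called). Outside the members, 162 genes had an E-box downstream of the start, of which 139 were tested. The 139 include the 14 other genes of ribosome production with such an E-box, so they are not a set apart from that pathway. The remaining ones were not checked for a role in it. Of the 139, 34.5% were called lower in input and 41.7% in polysomes in Nop60B RNAi against the germarial control (medians -0.99 and -1.1). Of the 9147 other genes with a promoter window, 5.82% and 10.7% were called lower (medians 0.05 and -0.04). Against the cyst control the 139 genes had medians of 0.24 in input and 0.18 in polysomes, and 4.32% and 10.1% of them were called lower. In the cyst control against the germarial control, 36% of the 139 genes were called lower in input and 41% in polysomes (medians -1.02 and -1.15), and among the members those with an E-box had medians of -1.42 and -1.75 and those without -0.58 and -0.75. These shares are descriptions of the letters in the window, and no test was made of them.

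Of 33 other genes of ribosome production, 12 fell and 0 rose in input (6.35% of all genes were lower) and 13 fell and 0 rose in polysomes (11.7% of all genes) against the germarial control, with medians of -1.16 and -1.19, and the remaining genes did not pass. The highest value in input was that of Nop10 (0.97). The snoRNP core led, with 6 of 7 lower in each fraction (Fib, Nop56, nop5, Nop60B, NHP2 and Gar1). Nop60B is the target of the hairpin, so its call is not independent of the design. It was also called lower in both fractions in the cyst control, which carried bam RNAi, than in the germarial control. In these libraries the part of the hairpin in the call was not tested. Nop60B is also within the counts of 12 and 13. Fib, the methyltransferase of box C/D snoRNPs, had 319 and 189 CPM in Nop60B RNAi input, 112 and 135 CPM in the cyst control, and 971 and 964 CPM in the germarial control (-1.93 against the germarial control, adjusted p = 0.0203, edgeR). RNA polymerase I subunits were called in 1 of 7 in input (Polr1E) and 2 of 7 in polysomes (Polr1D and Polr1E), and rRNA nucleases in 3 of 12 (Rrp4, Rrp45 and Mtr4) and 4 of 12 (Rrp4, Csl4, Mtr3 and Mtr4). Myc had 73.9 and 103 CPM in Nop60B RNAi input, 469 and 213 CPM in the cyst control, and 116 and 136 CPM in the germarial control, and in Nop60B RNAi was called against the cyst control only (-1.94 in input and -1.66 in polysomes).

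**Figure D4:**
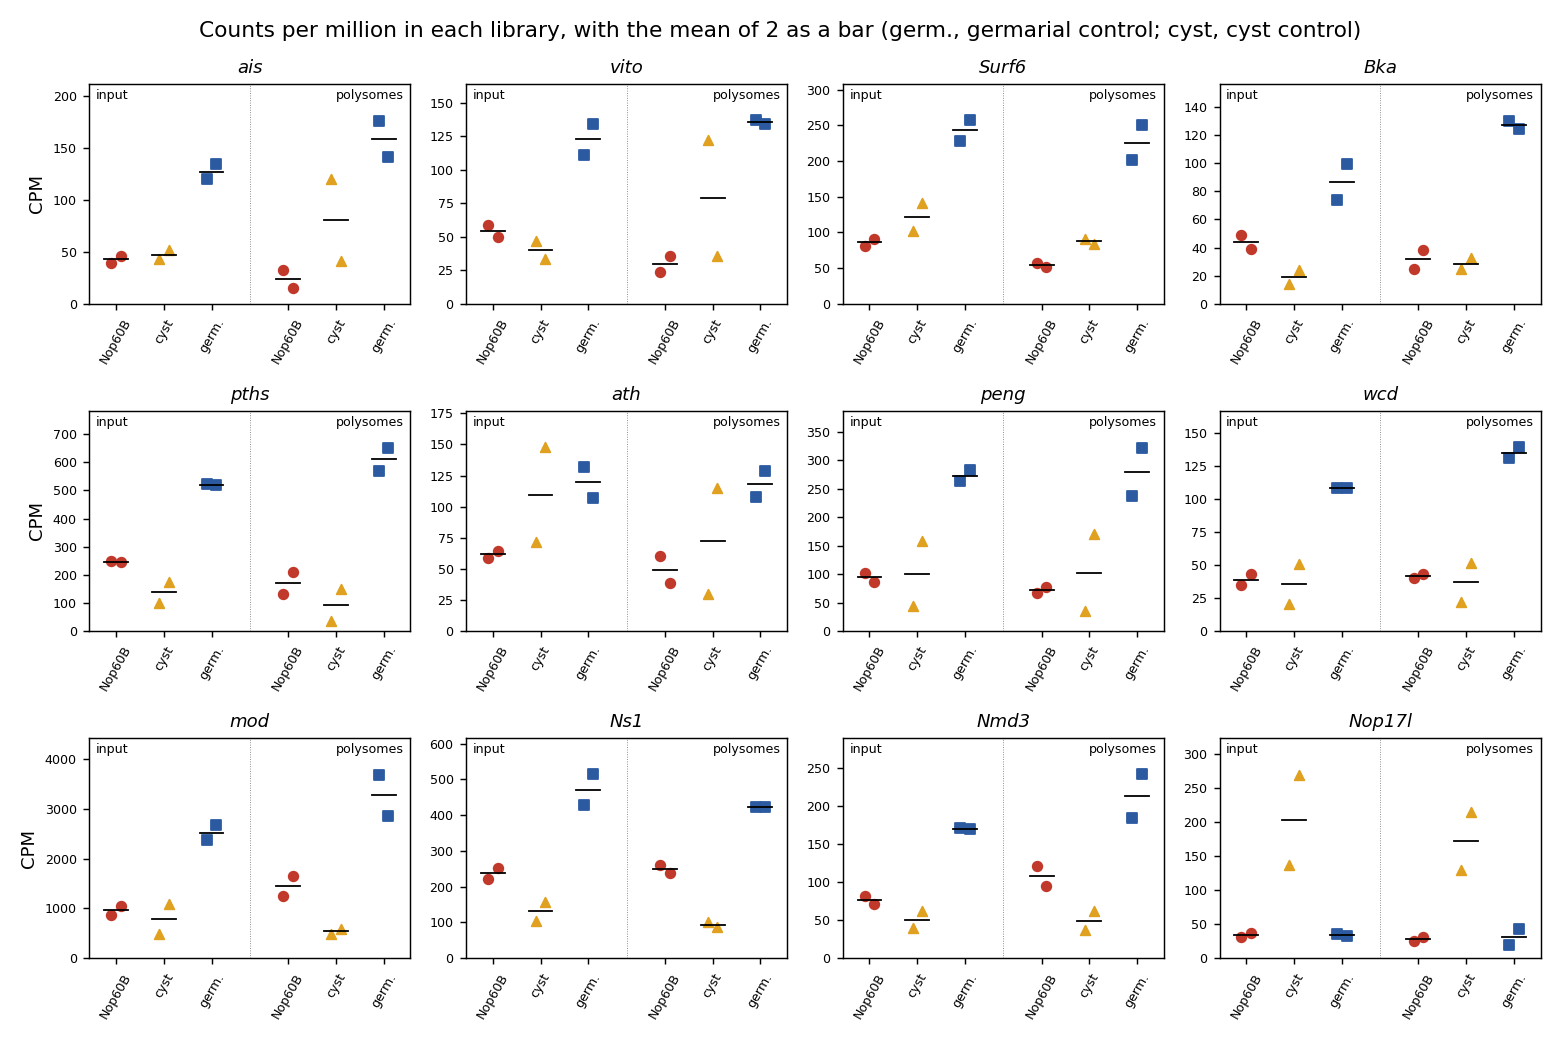
CPM in each library of 12 members, with the mean of the 2 replicates as a bar, in Nop60B RNAi, the cyst control and the germarial control, input left and polysomes right in each panel. For ais, vito, Surf6 and Bka the germarial control polysomes (124-250.1 CPM) lie above the Nop60B RNAi polysomes (15.4-57.6 CPM), and Nop17l is high only in the cyst control libraries (129-269 CPM against 19.8-42.2 CPM elsewhere).

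Against the cyst control, which shares the Nop60B RNAi libraries with the comparison above, most members were not called. In input 1 of 30 fell (Nop17l) and 1 rose (Bka), where 10.2% of all genes were lower and 9.01% higher, and the members' median was 0.07 against -0.01 over all genes. In polysomes 3 fell (ais, vito and Nop17l) and 3 rose (Ns1, mod and Nmd3), where 16.7% of all genes were lower and 9.84% higher, and the medians were 0.28 and -0.18. By adjusted p, Nop17l was lower in input (2.32% of all genes lower) and, in polysomes, Nop17l was lower and Ns1 higher (5.52% of all genes lower and 3.98% higher). Groups overlapped in 17 of 30 members in input and 15 of 30 in polysomes, and the share of all genes that overlapped was not taken. The counts of members that rose depended on the cyst replicates. More members rose in each fraction when its cyst control replicate 2 was left out. More fell in polysomes without cyst control polysomes replicate 1. Shares of all genes in those fits are not set beside them.

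Nop17l had 31.4 and 37.1 CPM in Nop60B RNAi input, 137 and 269 CPM in the cyst control and 35.6 and 32.6 CPM in the germarial control. Its polysome values were 25.1 and 31.6 CPM in Nop60B RNAi, 129 and 215 CPM in the cyst control, and 19.8 and 42.2 CPM in the germarial control. Both cyst control replicates were high in both fractions, and Nop60B RNAi did not stand apart from the germarial control. The difference of Nop60B RNAi from the cyst control was -2.57 ± 0.49 in input (adjusted p = 0.0176, edgeR) and -2.6 ± 0.49 in polysomes (adjusted p = 0.0107, edgeR), and both calls held without each library in turn.

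In polysomes, ais had a log2 difference of -1.75 ± 0.52 from the cyst control (unadjusted P = 0.00643, adjusted p = 0.0599, edgeR) and vito of -1.39 ± 0.53 (adjusted p = 0.119, edgeR). Without cyst control polysomes replicate 1 the values were -0.8 (unadjusted P = 0.0735, edgeR) for ais and -0.25 (unadjusted P = 0.5, edgeR) for vito, and neither was called. Both calls were also lost when a Nop60B RNAi polysome library was left out (replicate 2 for ais, -1.32, and replicate 1 for vito, -1.08). Of the genes that were higher than in the cyst control, Ns1 rose by 1.41 ± 0.3 (adjusted p = 0.0184), mod by 1.42 ± 0.41 (adjusted p = 0.0518) and Nmd3 by 1.12 ± 0.36 (adjusted p = 0.0768, edgeR). The call of Nmd3 was lost without cyst control polysomes replicate 1 (0.8) or Nop60B RNAi polysomes replicate 1 (0.94). Bka rose by 1.21 ± 0.45 in input (adjusted p = 0.155, edgeR), a call lost without cyst control input replicate 1 (0.86) or Nop60B RNAi input replicate 1 (1.02). Called lower in Nop60B RNAi polysomes against both controls were 649 genes in all (6.47%) and, among the members, ais and vito.

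The controls were set against each other to place these values. In input, 16 members were lower and 1 higher in the cyst control than in the germarial control (7.46% and 9.85% of all genes), with a median of -1.22 against 0.2 over all genes. In polysomes, 16 were lower and 1 higher (6.96% and 14.0% of all genes), with medians of -1.37 and 0.1. By adjusted p, 4 members were lower and 1 higher in input (1.98% and 2.07% of all genes) and 6 lower and 1 higher in polysomes (1.82% and 3.03% of all genes). The higher one was Nop17l each time (2.57 ± 0.49 and 2.48 ± 0.49, adjusted p = 0.0228 and 0.0216, edgeR). Called lower in both fractions were pths, Nopp140, Non3, Ns1, Ns3, pit, mod, wcd, Nmd3, Nle, RIOK1, Bka and Mys45A. Of these, Ns1 had -1.85 ± 0.31 in input and -2.17 ± 0.31 in polysomes (adjusted p = 0.0154 and 0.00937, edgeR) and mod had -1.68 ± 0.41 and -2.59 ± 0.42 (adjusted p = 0.0466 and 0.0111, edgeR). Without cyst control input replicate 1 fewer members were called lower in input. Over the 12 libraries left out in turn, the input call of Nopp140 was lost in 9 fits and that of Nle in 5. The polysome call of Nle was lost in 6, and those of Ns1 and mod in none. Over the alternative fits the adjusted p in polysomes reached 0.272 for Ns1 and 0.348 for mod (edgeR or DESeq2). Non3 and Nle had 2.71 and 0.904 CPM in cyst control polysomes replicate 1. Of the other genes of ribosome production, 15 of 33 were lower and 1 higher (Myc) in input and 18 lower in polysomes.

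Polysomes were set against input within each genotype to ask whether the mRNAs were loaded differently. No member was called in any genotype. In Nop60B RNAi the median was 0.07 (range -0.87 to 0.99, with 7.36% of all genes lower and 0.698% higher), in the cyst control -0.11 (-0.96 to 0.96, with 1.63% and 2.74%) and in the germarial control 0.15 (-0.4 to 0.56, with 1.19% and 0.0299%). Unadjusted P was under 0.05 for 2 members in Nop60B RNAi, 0 in the cyst control and 0 in the germarial control (edgeR). In Nop60B RNAi the ends of the range were vito (-0.87 ± 0.52) and ais (-0.85 ± 0.51) on the low side and l(2)k09022 (0.99 ± 0.44) on the high side, whose adjusted p-values were 0.683, 0.687 and 0.529 (edgeR). With each input and its polysomes paired as 1 lysate (replicate block), 2 members were lower in cyst control polysomes, Non3 (-1.32) and Mat89Ba (-1.84), and DESeq2 called 1 member higher in Nop60B RNAi polysomes.

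Genotype differences in polysomes over input were tested as an interaction of genotype and fraction. In Nop60B RNAi over the germarial control, 0 members were called (2.65% of all genes lower and 0.558% higher), 0 had an unadjusted P under 0.05 (edgeR), and the median was 0.02 against -0.08 over all genes. The lowest values were those of ais (-1.18 ± 0.72), Bka (-1.03 ± 0.63) and vito (-1.01 ± 0.73), with adjusted p = 1 each (edgeR). In Nop60B RNAi over the cyst control, 2 members were lower, vito (-1.83 ± 0.73, unadjusted P = 0.0298) and ais (-1.61 ± 0.72, unadjusted P = 0.0478, edgeR), and 0 higher, with 4.86% of all genes lower and 1.42% higher. No member passed by adjusted p (0.767 for both genes). With lysates paired (replicate block), vito remained called (-1.62) and ais did not (-1.51, unadjusted P = 0.0566, edgeR), while Nopp140 (1.34), mod (1.02) and Mat89Ba (2.07) were called higher. The share of all genes called higher under that block is not set beside them. Without cyst control polysomes replicate 1 the ratio values were -0.7 for vito and -0.65 for ais and neither was called (over all 12 libraries left out in turn, the call of ais was lost in 10 fits and that of vito in 4). Without cyst control polysomes replicate 2 more members were called higher, with no share of all genes beside them.

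**Figure D5:**
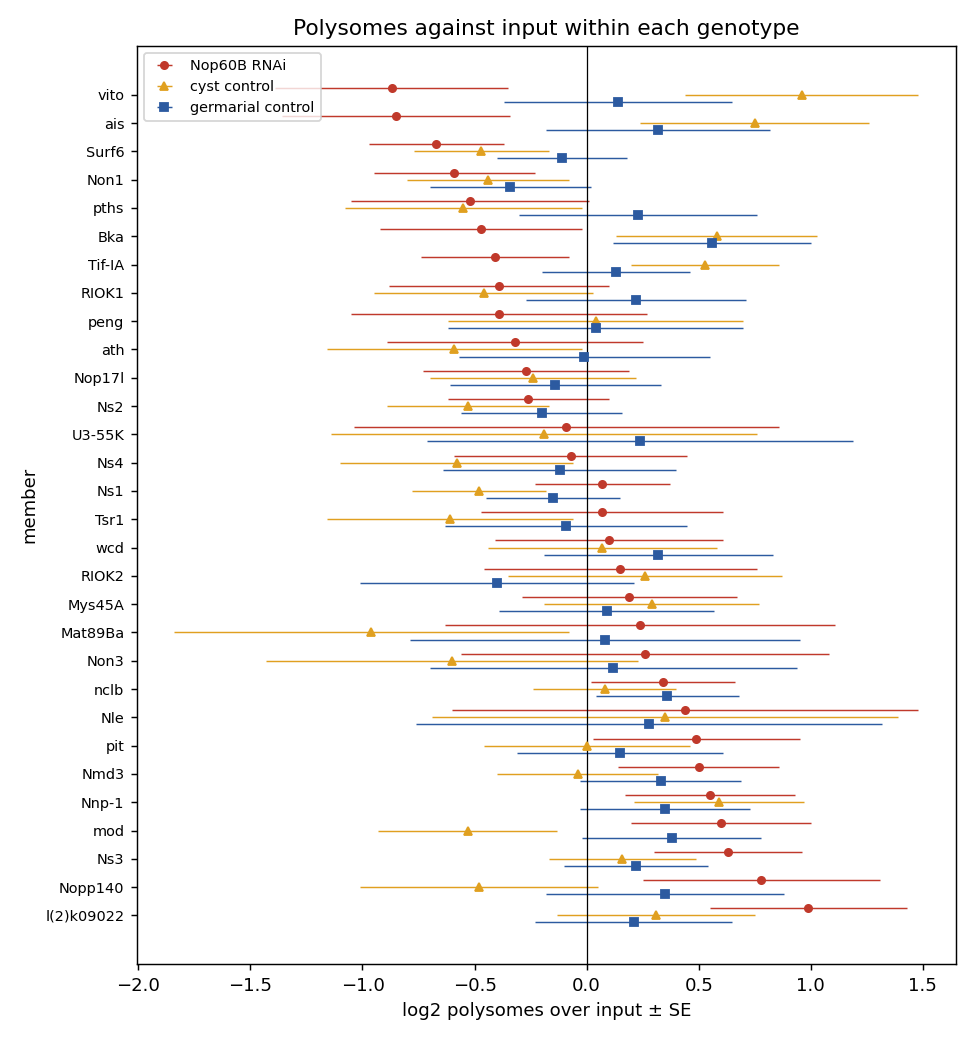
Log2 polysomes over input ± SE (edgeR, n = 2 each) of each member within Nop60B RNAi, the cyst control and the germarial control. No member was called, the range in the germarial control (-0.4 to 0.56) is the narrowest of the 3, and vito and ais lie below 0 in Nop60B RNAi and above 0 in both controls.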

How the data were processed

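Ovary lysates of 3 genotypes were split into input and polysome fractions from sucrose gradients, poly(A)-selected and sequenced in 12 libraries. The authors aligned single-end reads to dm6 with HISAT2 2.1.0 guided by RefSeq transcripts, and deposited raw counts per gene from featureCounts 1.4.6, with no normalization; strand setting and treatment of multiply mapped reads are not given in the sources used here. edgeR is named in the submitters' processing notes.

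From these counts, genes passing filterByExpr were fitted with edgeR 4.0.16 (limma 3.58.1, R 4.3.3): TMM normalization, quasi-likelihood test, 1 coefficient per group, all 12 libraries. CPM use TMM library sizes. Called means at least 2-fold and an unadjusted P under 0.05; all adjusted p-values are over all tested genes. The test was tried on simulated counts first. Alternatives were DESeq2 1.42.0, RLE size factors, no filter, only the compared libraries, a replicate block, and each library left out. The replicate block paired input and polysomes of a lysate for the ratio and for polysomes over input. For the other contrasts it was a common term for replicate 2 of all groups. Members and lists were chosen with earlier results of these data known. Values in every library are given for ais, ath, pths and the 4 called members of largest fold in each direction of each Nop60B RNAi contrast; others are summarised. Symbols came from Ensembl's annotation of Release 6 (other lists also through RefSeq synonyms), and unmatched entries were left out. Promoters were read from the RefSeq Release 6 genome with Python.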

Additional observations from a re-analysis of the deposited data

Results flagged for a closer look

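Of all the values above, 2 were singled out because an effect differed between fractions by a test of the difference itself. The polysome-to-input ratio of vito was lower in Nop60B RNAi than in the cyst control by an interaction of -1.83 on the log2 scale (unadjusted P = 0.0298, adjusted p = 0.767, edgeR), and that of ais by -1.61 (unadjusted P = 0.0478, adjusted p = 0.767, edgeR). Cyst control polysomes replicate 1 had 122 CPM of vito and 120.3 CPM of ais, against 35.3 and 40.9 CPM in replicate 2, and without replicate 1 the values were -0.7 and -0.65. Of the 30 members 2 were called lower in this ratio, and 4.86% of all genes were, so the share is near the background. The call of ais was also lost with the replicate block and with 10 of 12 libraries left out in turn, and that of vito with 4 of 12. No group held enough libraries to look for single outlying values.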

How the results depend on the processing

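The medians of the members against the germarial control were -0.98 or lower under DESeq2, RLE size factors, no filter, only the libraries of the comparison and the replicate block, while counts of calls moved. Against the germarial control, DESeq2 and RLE factors each ended the calls of vito in input and of Mys45A and Tif-IA in polysomes, and RLE factors and the replicate block that of ath in polysomes. DESeq2 called 1 member higher in polysomes over input of Nop60B RNAi. RLE factors called 1 there too, and 1 lower in the polysome-to-input ratio against the cyst control. With no filter, 6 members were higher against the cyst control in polysomes and 2 in the ratio. With only the libraries of the comparison, 1 was lower and 1 higher in polysomes against the cyst control, 1 was lower in the ratio against the germarial control, and 0 in the ratio against the cyst control. Over all genes, that setting called 1348 lower and 2185 higher in input against the germarial control (637 and 1157 with all 12 libraries) and 763 lower and 565 higher in polysomes against the cyst control (1671 and 987).

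With the replicate block, 5 members were higher in polysomes against the cyst control, 1 was lower and 3 higher in the ratio against the cyst control, and 2 were lower in polysomes over input of the cyst control. Input and polysomes of a replicate share a lysate, and their deviations from the group means correlated at 0.286 in the cyst, 0.0362 in the germarial control and -0.000803 in Nop60B RNAi.

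Leaving out each library in turn gave, against the germarial control, 5 to 16 members lower in input, 8 to 17 in polysomes and 0 to 2 in the ratio. Against the cyst control, 1 to 2 were lower and 0 to 6 higher in input, 2 to 5 lower and 2 to 11 higher in polysomes, and 0 to 3 lower and 0 to 10 higher in the ratio. The cyst control had 7 to 20 members lower than the germarial control in input. In polysomes over input, Nop60B RNAi had 0 to 1 lower and 0 to 1 higher, and the cyst control 0 to 12 lower and 0 to 3 higher. The counts of members under these alternatives mostly have no share of all genes beside them, so they show only that calls moved. The cause of these moves was not tested. The 2780781 counts of cyst control polysomes replicate 1 limit what its low members can show.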
